A study of Mus musculus with 31 samples.

Results

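The 10 genes described here encode enzymes that make serine, proline and asparagine, with the mitochondrial folate enzymes that use serine and with 2 genes of cysteine and glutathione metabolism. They were taken by name as Phgdh, Psat1, Psph, Shmt2, Mthfd2, Aldh18a1, Pycr1, Asns, Cth and Chac1, and each was found through its Entrez identifier among 20704 genes listed for ribosome-protected fragments (RPFs) and 24593 listed for total RNA. No measured value entered that choice, although results of these data were already known when it was made. All 10 passed the filter on low counts, which left 9457 genes for RPF, 11708 for total RNA and 9448 for translational efficiency (TE), the ratio of RPF to total RNA.

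Serine is made from a glycolytic intermediate by PHGDH, PSAT1 and PSPH, and SHMT2 and MTHFD2 then pass its carbon to folate in mitochondria. Proline and asparagine are made from glutamate and aspartate, by ALDH18A1 and PYCR1 and by ASNS. In the integrated stress response (ISR), kinases phosphorylate a single serine of eIF2α, most translation slows, and translation of the transcription factor ATF4 rises, and ATF4 is known to bind C/EBP-ATF response elements at several of these genes.

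Cells were skin squamous cell carcinoma (SCC) keratinocytes, labelled as HRasG12V:TgfbrIIfl/fl and grown in E-low medium. The study's own list of cell lines gives both lines as HRasG12V TgfbrII D/D, the deleted form of that allele, and the files do not settle which applies. In both lines the endogenous Eif2s1 gene, which encodes eIF2α, had been ablated and replaced by a myc-tagged transgene under the PGK promoter. The transgene was wild type in S51 cells, called ISR-competent here, and carried alanine in place of the phosphorylated serine in S51A cells, called ISR-null. Cells of each line received DMSO as vehicle or 100 nM bortezomib, a proteasome inhibitor, for 4.5 h according to the labels. The study's figure legend for this experiment gives 4 h. The lines came from clones grown from single cells, and the clone behind each library was not named, so that genotype and clone cannot be told apart. RPF libraries numbered 3 for S51 vehicle and 4 for each other group, and total RNA libraries numbered 4 per group. Nothing in the labels says that replicates were separate cultures. The study's text speaks of technical replicates, whereas its figure legends speak of independent biological replicates. P-values therefore measure the spread between these samples, which may be technical.

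Totals on genes ran from 1038826 to 4902237 reads in RPF libraries and from 18758668 to 22994713 in total RNA, so that total RNA values are the more precise. Hspa1b, a heat shock gene that proteasome inhibitors are known to induce, had between 596 and 1107 CPM (counts scaled to TMM-adjusted library sizes and given per 1e6 reads) in the 8 RPF libraries labelled bortezomib and at most 38.6 CPM in the 7 labelled vehicle. Eif2s1 itself cannot check the genotype, since counts do not show the codon, and its total RNA lay between 279 and 314 CPM in all 16 libraries. Summed over 8 keratinocyte markers, RPF levels ran from 24075 to 35761 CPM, against at most 20.3 CPM for any list of fibroblast, immune, endothelial or melanocyte markers. The keratinocyte sum in total RNA was higher in S51A vehicle (15119 to 15194 CPM) than in S51 vehicle (11406 to 12057 CPM), and its part in the differences between the lines was not tested. RPF replicate 2 of S51 vehicle stood apart from the other 2 for several of the 10 genes, and results that turn on it are given with and without it.

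The 3 stretches of promoter shown here were chosen because they hold the letters of the C/EBP-ATF element, TGATGNAA, searched on both strands in the 300 bases around each annotated start. RefSeq promoters of GRCm38.p6 were given for 9 of the 10 genes, Cth being absent from that table, and the element was found in Asns, Chac1 and Pycr1. Among all genes with a promoter, 4.51% of 27025 held it, and the stricter form TGATGCAA, found in Chac1 and Pycr1, was held by 1.03%. Each line reads 5′ to 3′ along the gene's strand, with the matching letters in capitals.
Asns (chr6:7693210-7693257, minus strand): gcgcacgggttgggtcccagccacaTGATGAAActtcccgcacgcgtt
Pycr1 (chr11:120643819-120643876, minus strand): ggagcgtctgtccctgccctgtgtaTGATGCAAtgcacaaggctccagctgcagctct
Chac1 (chr2:119351024-119351081, plus strand): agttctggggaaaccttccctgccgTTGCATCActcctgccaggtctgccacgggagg
The first base of the match lay 23 bases before the start in Asns, 103 in Pycr1 and 193 in Chac1, where it read in the reverse orientation. These matches are descriptions of the letters, and the absence of a match in the promoters of the other 6 genes searched says nothing about binding elsewhere.

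Per kilobase of coding sequence, Psat1 had the highest RPF level of the 10 genes in vehicle-treated ISR-competent cells, without regard to its total RNA level. Its RPF level in S51 vehicle was 1477 ± 230 CPM per kilobase (SD, n = 3), followed by Asns at 622 ± 40.4, Shmt2 at 516 and Phgdh at 464. Mthfd2 (277), Psph (178), Cth (124) and Aldh18a1 (120) lay in the middle, and Chac1 (57.2) and Pycr1 (49.2) were lowest. All 10 lay above 23.7 CPM per kilobase, the median of the 9442 tested genes with a coding length. The orders of Asns and Shmt2, of Shmt2 and Phgdh, of Cth and Aldh18a1 and of Chac1 and Pycr1 are within the spread between replicates. Summed over the 10 genes, RPF levels ran from 4909 to 4937 CPM in S51 vehicle and from 2530 to 2673 CPM in S51A vehicle.

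**Figure D1:**
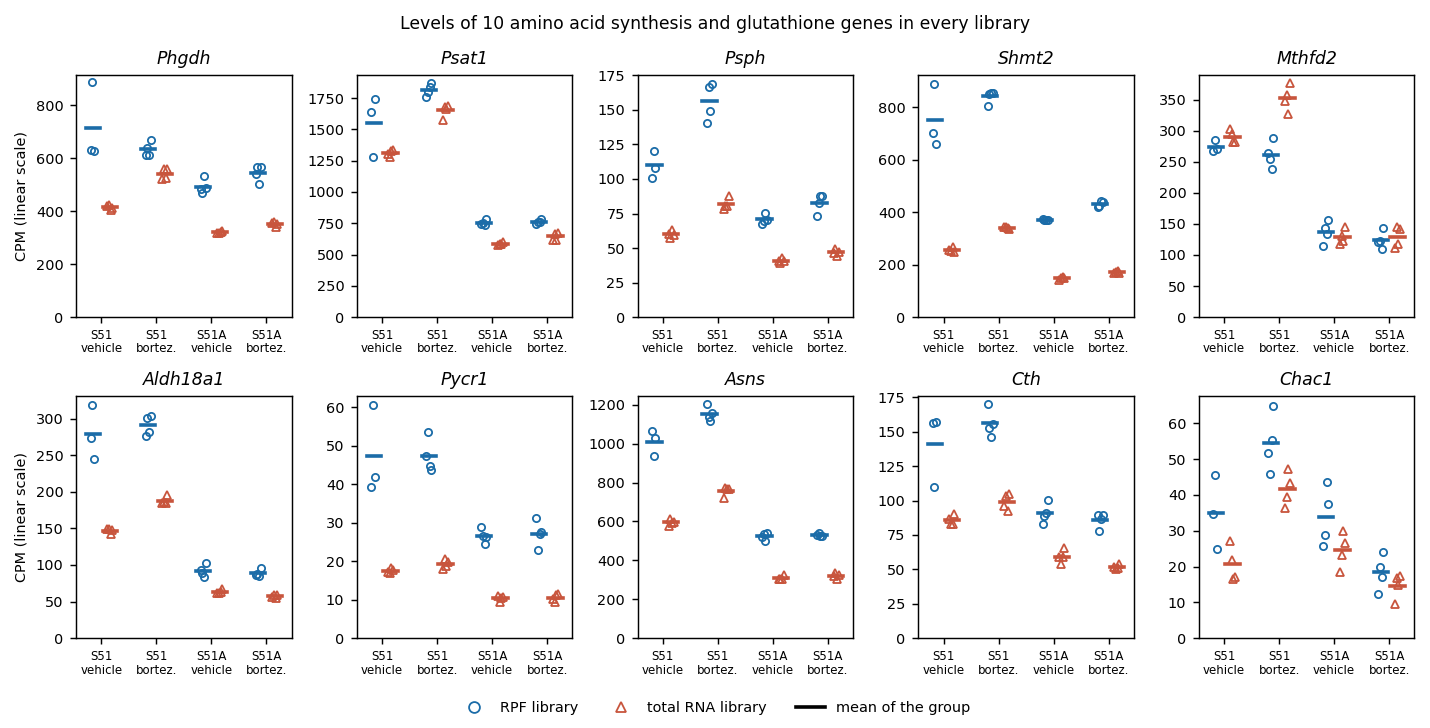
Level of each of the 10 genes in every library, in CPM on a linear axis from 0, with RPF libraries as circles, total RNA libraries as triangles and a bar at each group's mean. In 9 of the genes both S51A groups lie below S51 vehicle in both kinds of library, whereas Chac1 overlaps between the vehicle groups and separates with bortezomib.

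The first comparison asked how the genes stood in the absence of stress, as S51A vehicle against S51 vehicle. RPF levels of 9 of the 10 genes were lower in the ISR-null cells, Chac1 being the exception, and total RNA was lower for the same 9. A gene was called when it differed more than 1.5-fold with an adjusted p under 0.05, and 8 were called lower in RPF, where 6.62% of all tested genes were. By the adjusted p alone 9 passed, against 13.8% of all genes. The median RPF log2 fold change of the 10 was -0.88, beside 0.01 over all tested genes. In total RNA, 9 passed as lower against 32.4% of all genes, and 3 were called at the fold change above 2 that was set for total RNA, against 2.41%. All libraries of S51A vehicle lay below all of S51 vehicle for 9 genes in each kind of library, an arrangement seen in 15.6% of all genes in RPF and 28.6% in total RNA.

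Among the serine enzymes, Psat1, the aminotransferase of the second step, differed most. Its RPF level was 1637, 1283 and 1746 CPM in S51 vehicle and 741, 752, 737 and 781 CPM in S51A vehicle. Its total RNA was 1302, 1278, 1331 and 1333 CPM in S51 vehicle and 574, 581, 586 and 598 CPM in S51A vehicle. The groups were far apart in both, with log2 fold changes of -1.05 (SE 0.08, adjusted p = 6.17e-09 from the quasi-likelihood test of edgeR, adjusted after Benjamini and Hochberg, as for every adjusted p here) in RPF and -1.16 (SE 0.03, adjusted p = 4.22e-19) in total RNA. Phgdh, the dehydrogenase of the first step, was lower by less. Its RPF level was 631, 887 and 628 CPM in S51 vehicle and 483, 466, 532 and 487 CPM in S51A vehicle, so that the groups did not overlap and replicate 2 of S51 stood well above the rest. Its log2 fold change was -0.54 in RPF (SE 0.10, adjusted p = 0.000397), under the 1.5-fold limit, and -0.37 in total RNA (SE 0.03, adjusted p = 3.59e-10). Without replicate 2 of S51 vehicle the Phgdh RPF value was -0.36 (adjusted p = 0.000157). Psph, the phosphatase that releases serine, had 101 to 120 CPM of RPF in S51 vehicle and 67.8 to 75.5 CPM in S51A vehicle, with log2 fold changes of -0.63 in RPF (adjusted p = 8.81e-05) and -0.57 in total RNA (adjusted p = 2.9e-10). Without replicate 2 of S51 vehicle its RPF value was -0.57, below the 1.5-fold limit.

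The mitochondrial folate enzymes were lower in the ISR-null cells in both kinds of library. Shmt2, which splits serine into glycine and a folate-bound carbon, had 704, 888 and 661 CPM of RPF in S51 vehicle and 374, 372, 372 and 370 CPM in S51A vehicle. Its log2 fold change was -1.01 in RPF (SE 0.08, adjusted p = 1.64e-08) and -0.79 in total RNA (adjusted p = 3.43e-16). Mthfd2, which oxidises that folate, had 268, 286 and 270 CPM of RPF in S51 vehicle and 114, 143, 133 and 157 CPM in S51A vehicle, with log2 fold changes of -0.997 in RPF (SE 0.11, adjusted p = 4.18e-07) and -1.17 in total RNA (SE 0.07, adjusted p = 2.93e-13). No S51A library of either gene reached the lowest S51 library.

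Aldh18a1, the synthase that commits glutamate to proline, showed the largest difference of the 10 genes. Its RPF level was 273, 318 and 245 CPM in S51 vehicle and 92.5, 88.5, 83.8 and 102 CPM in S51A vehicle. Its total RNA was 149, 149, 142 and 148 CPM in S51 vehicle and 62.2, 61.4, 62.5 and 67.5 CPM in S51A vehicle. The S51 level was 3.02-fold the S51A level in RPF (log2 fold change -1.59, SE 0.10, adjusted p = 1.63e-10) and 2.32-fold in total RNA (log2 fold change -1.21, SE 0.04, adjusted p = 3.17e-18). Pycr1, the reductase that completes proline, rested on few fragments, with 59 to 168 counts per RPF library in the vehicle groups. It had 39.3, 60.4 and 41.8 CPM in S51 vehicle and 24.5 to 29.0 CPM in S51A vehicle, with log2 fold changes of -0.81 in RPF (SE 0.15, adjusted p = 0.000314) and -0.76 in total RNA (SE 0.07, adjusted p = 2.84e-09).

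Asns, the asparagine synthetase, had 1066, 938 and 1029 CPM of RPF in S51 vehicle and 521, 536, 502 and 540 CPM in S51A vehicle. Its total RNA was 577, 615, 590 and 600 CPM in S51 vehicle and 303, 306, 305 and 323 CPM in S51A vehicle. The ISR-null level was close to 0.52 of the ISR-competent level in both, with log2 fold changes of -0.95 in RPF (SE 0.07, adjusted p = 1.92e-09) and -0.94 in total RNA (SE 0.03, adjusted p = 5.54e-17). Cth, the cystathionine lyase that releases cysteine, had 157, 110 and 157 CPM of RPF in S51 vehicle and 82.7 to 101 CPM in S51A vehicle, with log2 fold changes of -0.64 in RPF (SE 0.11, adjusted p = 0.00024) and -0.54 in total RNA (adjusted p = 2.71e-09).

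Chac1, which degrades glutathione, did not share this pattern. Its RPF level was 34.7, 45.4 and 24.9 CPM in S51 vehicle and 25.7, 28.7, 43.6 and 37.5 CPM in S51A vehicle, and its total RNA 27.1, 21.7, 16.4 and 17.1 CPM against 18.4, 23.3, 29.99 and 26.5 CPM. The groups overlapped in both kinds of library, with Chac1 log2 fold changes of -0.01 in RPF (95% interval -0.42 to 0.41, adjusted p = 0.987) and 0.26 in total RNA (-0.04 to 0.56, adjusted p = 0.147). The total RNA value passed as higher in S51A cells with no filter beyond 1 count (0.25, adjusted p = 0.0253), without S51 vehicle replicate 1 (0.41, adjusted p = 0.0238) and without S51A vehicle replicate 1 (0.37, adjusted p = 0.0365).

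**Figure D2:**
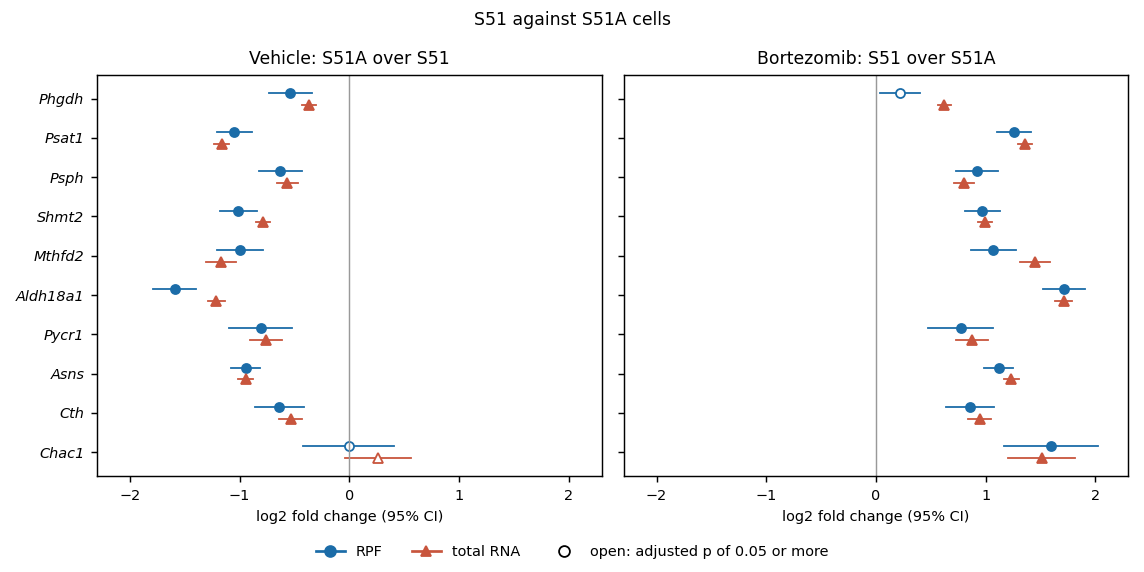
Log2 fold change of each of the 10 genes between the lines, in vehicle as S51A over S51 and in bortezomib as S51 over S51A, with 95% intervals and with RPF as circles and total RNA as triangles. In vehicle 9 genes lie below 0 and Chac1 lies around 0, and in bortezomib all 10 lie above 0, with RPF of Phgdh at 0.22 the lowest.

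The second comparison asked how the lines stood under bortezomib, as S51 bortezomib against S51A bortezomib. It compares none of the libraries of the first, but the lines are the same and the spread was estimated over all 4 groups. In RPF, 9 of the 10 genes were called higher in S51 cells, against 7.66% of all tested genes. In total RNA, 10 passed as higher against 32.4% of all genes and 5 were called against 2.74%, namely Psat1, Mthfd2, Aldh18a1, Asns and Chac1. For all 10 genes every S51 library lay above every S51A library in both kinds, an arrangement seen in 16.5% of all genes in RPF and 28.3% in total RNA. The median log2 fold change of the 10 was 1.02 in RPF and 1.11 in total RNA, beside -0.01 over all genes in each.

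Aldh18a1 again differed most, with 277, 301, 282 and 304 CPM of RPF in S51 bortezomib and 86.0, 88.2, 84.3 and 95.6 CPM in S51A bortezomib. Its log2 fold change was 1.71 in RPF (SE 0.10, adjusted p = 4.95e-11) and 1.71 in total RNA (SE 0.04, adjusted p = 4.89e-21). Chac1 followed in RPF, with 51.7, 45.9, 55.2 and 65.0 CPM in S51 bortezomib and 12.2, 19.98, 17.2 and 24.0 CPM in S51A bortezomib. Its log2 fold change was 1.60 in RPF (SE 0.22, adjusted p = 9.5e-06) and 1.51 in total RNA (SE 0.16, adjusted p = 6.8e-09), so that the gene that did not pass in vehicle was among the most different under bortezomib. Psat1 had 1762 to 1874 CPM of RPF against 746 to 782 CPM, and Asns 1115 to 1202 CPM against 526 to 543 CPM. Their RPF log2 fold changes were 1.26 (adjusted p = 1.32e-10) and 1.12 (adjusted p = 6.89e-11).

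The other genes lay between, with RPF log2 fold changes of 1.07 for Mthfd2, 0.97 for Shmt2, 0.92 for Psph, 0.86 for Cth and 0.77 for Pycr1, the largest adjusted p among them being 0.000511, for Pycr1. Phgdh was nearest to the threshold in RPF. It had 614, 637, 614 and 668 CPM in S51 bortezomib and 539, 567, 501 and 568 CPM in S51A bortezomib, which gave a log2 fold change of 0.22 (95% interval 0.03 to 0.40, adjusted p = 0.0845). Without S51 vehicle replicate 2 the Phgdh RPF value was 0.22 with an adjusted p of 0.00383, and without S51 vehicle replicate 3 it was 0.24 (adjusted p = 0.0416). It also passed when fitted on the compared groups alone (0.23, adjusted p = 0.00544) and when scaled by library size alone (0.27, adjusted p = 0.0372), and it stayed below 1.5-fold in all 4. Its total RNA differed by 0.62 (SE 0.03, adjusted p = 2.27e-14), with 522, 560, 525 and 557 CPM against 355, 360, 339 and 351 CPM.

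The next comparison asked how each gene moved when ISR-competent cells met bortezomib, as S51 bortezomib against S51 vehicle. RPF of 4 of the 10 genes passed as higher, against 14.8% of all genes, and 1 was called, against 7.38%. The called gene was Chac1, with a log2 fold change of 0.69 (SE 0.21, adjusted p = 0.0177). Psph passed at 0.51 (SE 0.10, adjusted p = 0.000645), from 101, 120 and 108 CPM in vehicle to 140, 166, 149 and 169 CPM in bortezomib. Psat1 at 0.23 (adjusted p = 0.0448) and Asns at 0.19 (adjusted p = 0.0443) lay at the threshold, and without replicate 2 of S51 vehicle they were at 0.11 (adjusted p = 0.216) and 0.14 (adjusted p = 0.107). Without any 1 of 12 of the 15 RPF libraries Psat1 did not pass, and without any 1 of 13 Asns did not. The other 6 did not pass, from -0.17 for Phgdh to 0.17 for Shmt2. Without replicate 2 of S51 vehicle, Phgdh was at 0.01 (adjusted p = 0.95) and Shmt2 at 0.31 (adjusted p = 0.000546), so that Shmt2 then passed. Without S51 vehicle replicate 3, Phgdh passed as lower at -0.29 (adjusted p = 0.042).

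Total RNA of 9 of the 10 genes rose in S51 cells, against 29.7% of all genes that passed as higher. The rises were modest. Outside Chac1 they ran from 0.21 for Cth to 0.44 for Psph on the log2 scale, with adjusted p of at most 0.000944, and Pycr1 did not pass at 0.14 (adjusted p = 0.0921). Shmt2 went from 254, 254, 268 and 248 CPM to 343, 343, 340 and 337 CPM (log2 fold change 0.41, adjusted p = 4.42e-11). Asns went from 577 to 615 CPM across the vehicle libraries to 720 to 773 CPM across the bortezomib libraries (0.35, adjusted p = 4.72e-09). Of the 10, Chac1 alone was called at the fold change above 2 in total RNA, against 1.96% of all genes. Scaled by library size alone, all genes shifted by -0.15 (median), 7 of the 10 then passed as higher, without Mthfd2, Cth and Pycr1, and Chac1 fell below 2-fold at 0.87.

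In ISR-null cells, as S51A bortezomib against S51A vehicle, none of the 10 genes passed as higher in RPF by edgeR or by DESeq2. In edgeR 2 lay above 0 at an unadjusted p under 0.05, a rule for which the share of all genes was not counted. Chac1 was called lower, against 6.67% of all genes. The other 9 RPF log2 fold changes ran from -0.14 for Mthfd2 to 0.22 for Psph. Shmt2, at 0.21, had 374, 372, 372 and 370 CPM in vehicle and 419, 422, 442 and 437 CPM in bortezomib. Its groups did not overlap, and its adjusted p was 0.0687, or 0.00397 without S51 vehicle replicate 2, which enters through the shared estimate of spread, and 0.00711 on the S51A groups alone. In total RNA 4 genes passed as higher (Psat1 at 0.14, Phgdh at 0.13, Psph at 0.21 and Shmt2 at 0.20), against 27.5% of all genes. Another 3 passed as lower (Aldh18a1 at -0.15, Cth at -0.20 and Chac1 at -0.74), against 28.9%. None was called at the fold change above 2. Scaled by library size alone, the total RNA of Psat1, Phgdh and Psph no longer passed in S51A cells, while all genes shifted by -0.12 (median).

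**Figure D3:**
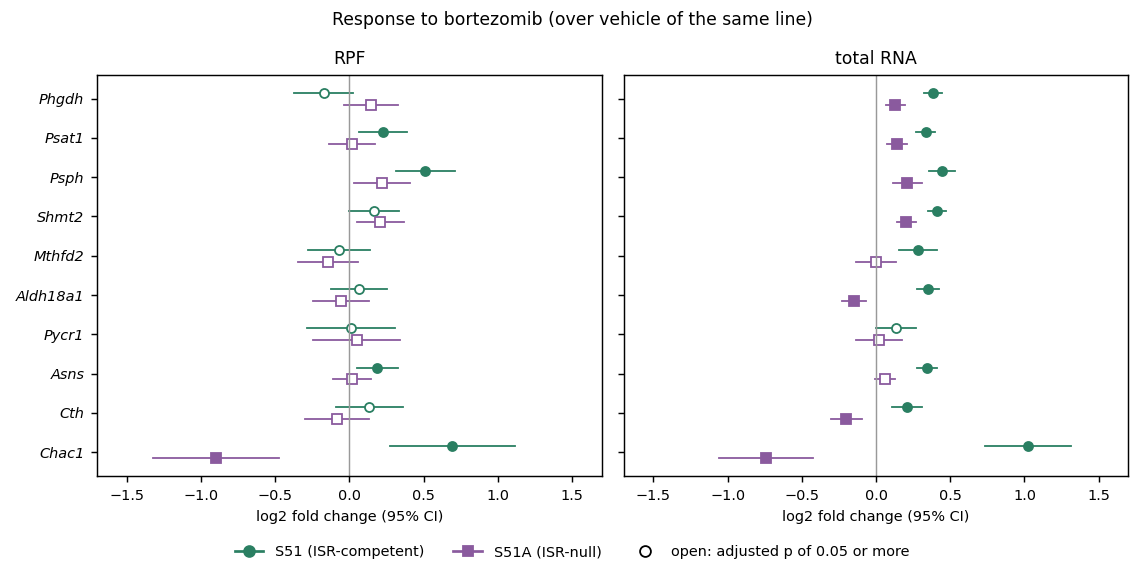
Log2 fold change of each of the 10 genes upon bortezomib in S51 and in S51A cells, with 95% intervals, for RPF and for total RNA. The total RNA values of S51 cells lie to the right of those of S51A cells for every gene, and Chac1 moves in opposite directions in the lines in both panels.

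The difference between these responses (S51 response minus S51A response) was tested as an interaction, and the responses share their libraries with the comparisons above. In total RNA 9 of the 10 genes passed, all with the larger response in S51 cells, against 12.0% of all genes that passed as higher. They ran from 0.19 for Psat1 (SE 0.05, adjusted p = 0.00429) to 0.50 for Aldh18a1 (SE 0.05, adjusted p = 1.05e-06), with Chac1 beyond them at 1.77. Cth differed by 0.41 (SE 0.07, adjusted p = 0.000324), Asns by 0.29 (adjusted p = 0.000188), Mthfd2 by 0.28 (SE 0.10, adjusted p = 0.0383) and Phgdh by 0.25 (adjusted p = 0.000288). The Mthfd2 value no longer passed without any 1 of 9 total RNA libraries, with an adjusted p of at most 0.096, and scaled by library size alone it was 0.24 (adjusted p = 0.0653). Psph differed by 0.23 (adjusted p = 0.0144) and Shmt2 by 0.21 (adjusted p = 0.00186). Pycr1 differed by 0.11 (95% interval -0.09 to 0.32, adjusted p = 0.477). Of the 10, Chac1 alone was called, in total RNA, where 0.316% of all genes were, and in RPF, where 0.878% were. For the other 9 genes the RPF differences ran from -0.32 for Phgdh to 0.29 for Psph, and their standard errors of 0.10 to 0.21 exceeded those in total RNA.

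Chac1 passed in opposite directions in the lines in both kinds of library. In total RNA Aldh18a1 (0.35 in S51 and -0.15 in S51A cells) and Cth (0.21 and -0.20) did so too, and Cth no longer passed in S51 cells when scaled by library size alone (0.05, adjusted p = 0.355). Of all genes, 29.7% passed as higher in total RNA in S51 cells and 28.9% as lower in S51A cells. The share with both was not counted in either kind of library, and it cannot be read from these single shares. In S51 cells the RPF level of Chac1 went from 34.7, 45.4 and 24.9 CPM to 51.7, 45.9, 55.2 and 65.0 CPM. In S51A cells it went from 25.7, 28.7, 43.6 and 37.5 CPM to 12.2, 19.98, 17.2 and 24.0 CPM. The groups touched without overlapping in both lines. Its total RNA went from 27.1, 21.7, 16.4 and 17.1 CPM to 36.4, 39.3, 47.4 and 43.3 CPM in S51 cells (log2 fold change 1.02, SE 0.15, adjusted p = 1.94e-06). In S51A cells it went from 18.4, 23.3, 29.99 and 26.5 CPM to 9.63, 16.7, 14.7 and 17.4 CPM (-0.74, SE 0.16, adjusted p = 0.00037). The RPF change in S51A cells was -0.90 (SE 0.22, adjusted p = 0.00439), and the lines differed in response by 1.59 in RPF (SE 0.30, adjusted p = 0.00465) and by 1.77 in total RNA (SE 0.22, adjusted p = 5.11e-06). These RPF values rest on 33 to 185 counts per library. The RPF rise in S51 cells lost its call without S51 vehicle replicate 3 (0.45, adjusted p = 0.116) or S51 bortezomib replicate 4 (0.60, adjusted p = 0.0638). The total RNA rise stayed past the adjusted p without any 1 library and fell below 2-fold without S51 vehicle replicate 3 (0.93), S51 vehicle replicate 4 (0.94) or S51 bortezomib replicate 3 (0.95).

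TE compares RPF with the total RNA of the same gene, and the study kept total RNA and RPFs from the same lysates. Between the lines in vehicle no gene of the 10 passed in TE by edgeR, against 0.116% of all genes. By edgeR 2 of the 10 had an unadjusted p under 0.05. DESeq2 passed 1 of the 10, Aldh18a1, at -0.39 (adjusted p = 0.0105). The share of all genes was not counted for the unadjusted p or for DESeq2. Without S51 vehicle replicate 3, edgeR passed Aldh18a1 at -0.49 (adjusted p = 0.00382) and Shmt2 at -0.35 (adjusted p = 0.0124), and the TE responses of Aldh18a1 then differed by -0.48 (adjusted p = 0.0263). The members' TE log2 differences there ran from -0.38 for Aldh18a1 (95% interval -0.57 to -0.20, adjusted p = 0.1) to 0.17 for Mthfd2. In S51A cells none passed upon bortezomib by edgeR, against 1.24% of all genes, and none passed by DESeq2. None had an unadjusted p under 0.05, and values ran from -0.15 for Chac1 to 0.13 for Cth.

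By edgeR on all libraries, Phgdh was the gene of the 10 whose TE passed. The RPF level over the total RNA level of same-numbered libraries lay between 1.501 and 2.10 in S51 vehicle, between 1.14 and 1.20 in S51 bortezomib, between 1.47 and 1.65 in S51A vehicle and between 1.48 and 1.62 in S51A bortezomib. The S51 bortezomib libraries were below all others. Its TE fell by 0.54 on the log2 scale in S51 cells upon bortezomib (95% interval -0.74 to -0.34, adjusted p = 0.000356), where 9.40% of all genes passed in either direction. In bortezomib it was lower in S51 than in S51A cells, with a log2 difference of -0.39 (-0.59 to -0.20, adjusted p = 0.0113), where 6.40% of all genes passed. The responses of the lines differed by -0.57 (SE 0.14, adjusted p = 0.0261), where 1.74% of all genes passed. None of these reached 1.5-fold. The high RPF level of S51 vehicle replicate 2 enters the first and the last, and without it they were -0.36 (adjusted p = 0.000235) and -0.40 (adjusted p = 0.00914). Without S51 bortezomib replicate 3 the last was -0.56 (adjusted p = 0.0561). Scaled by library size alone, the Phgdh TE difference in bortezomib was -0.30 (adjusted p = 0.0569) and the difference of responses -0.51 (adjusted p = 0.0668). A near-identical pseudogene, Phgdh-ps1, is annotated, and uniquely mapped reads can lower the counts of Phgdh in every library.

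Mthfd2 had TE log2 differences of -0.34 upon bortezomib in S51 cells (95% interval -0.59 to -0.09, adjusted p = 0.0888) and -0.37 between the lines in bortezomib (adjusted p = 0.0799). With the shared lysate as a replicate block these were -0.32 (adjusted p = 0.0332) and -0.37 (adjusted p = 0.0134), both past the threshold, and the second also passed without S51 vehicle replicate 2 (-0.37, adjusted p = 0.0411) and on the compared groups alone (-0.38, adjusted p = 0.0456). Without that library the TE of Psat1 and Asns also passed as lower upon bortezomib in S51 cells, at -0.22 (adjusted p = 0.0179) and -0.19 (adjusted p = 0.0433), beside -0.10 (adjusted p = 0.543) and -0.14 (adjusted p = 0.219) with it. Shmt2 and Aldh18a1 were at -0.23 (adjusted p = 0.087) and -0.27 (adjusted p = 0.057) in that comparison. DESeq2 passed both, with adjusted p of 0.0407 and 0.0235, as well as Asns (adjusted p = 0.0335). The share of all genes that DESeq2 passed there was not counted. By edgeR Shmt2 passed there without S51 vehicle replicate 1 (-0.27, adjusted p = 0.0483) or 3 (-0.33, adjusted p = 0.00588). Aldh18a1 passed without S51 vehicle replicate 3 (-0.37, adjusted p = 0.00382), S51 bortezomib replicate 2 (-0.30, adjusted p = 0.0374) or S51A vehicle replicate 4 (-0.27, adjusted p = 0.0452).

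**Figure D4:**
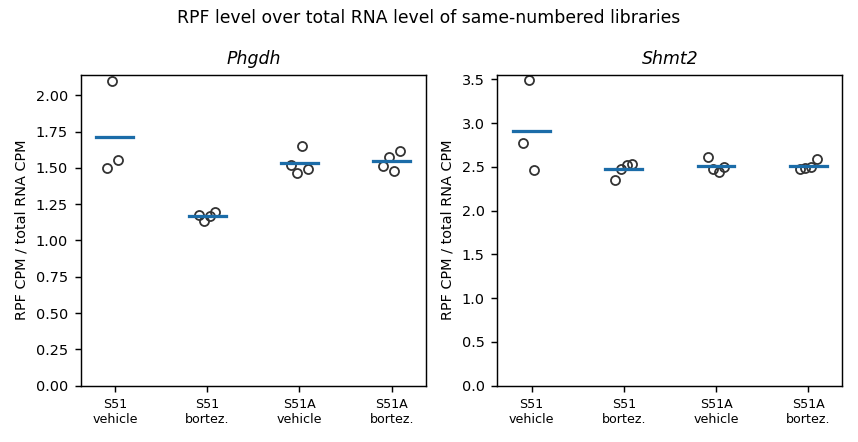
RPF level over total RNA level of same-numbered libraries for Phgdh and for Shmt2, on linear axes from 0, with a point per library pair and a bar at each group's mean. The 4 S51 bortezomib points of Phgdh lie between 1.14 and 1.20, below every other point of that gene, whereas those of Shmt2 lie between 2.35 and 2.53 and overlap the S51A values.

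Atf4, the transcription factor of the ISR, had 212, 181 and 174 CPM of RPF in S51 vehicle and 506, 506, 538 and 529 CPM in S51 bortezomib. In S51A cells it had 107, 116, 129 and 151 CPM in vehicle and 108, 141, 137 and 141 CPM in bortezomib. Its RPF rose by 1.46 on the log2 scale in S51 cells (adjusted p = 3.25e-09), with a total RNA value of -0.00 (adjusted p = 0.94), and it was lower in S51A than in S51 vehicle by -0.58 in RPF (adjusted p = 0.000659) and by -0.58 in total RNA (adjusted p = 1.77e-11). Atf5, a related factor, was lower in S51A vehicle by -1.76 in RPF (adjusted p = 2.85e-06) and by -1.46 in total RNA (adjusted p = 1.31e-16). Ddit3, which encodes CHOP, had -0.03 in RPF in that comparison (adjusted p = 0.968) and rose by 2.94 upon bortezomib in S51 cells (adjusted p = 4.77e-07). Atf4 and Atf5 were thus lower in S51A vehicle, as 9 of the 10 enzymes were, and Ddit3, like Chac1, did not pass there.

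Some paralogs of the 10 genes, and Cbs as a neighbour in the pathway of Cth, were measured in the same libraries. Cytosolic Shmt1 had RPF log2 differences of -0.27 in vehicle (adjusted p = 0.0621) and 0.23 in bortezomib (adjusted p = 0.106). Pycrl had -0.05 in vehicle (adjusted p = 0.838). Mthfd1l, which releases formate after Mthfd2, was lower in S51A vehicle by -0.41 (adjusted p = 0.00176) and higher in S51 bortezomib by 0.43 (adjusted p = 0.000661). Mthfd2l, a relative of Mthfd2, went the other way in bortezomib at -0.87 (adjusted p = 0.0199). Chac2, the relative of Chac1, was higher in S51A vehicle by 0.57 (adjusted p = 0.0415), and Cbs, which acts before Cth, was tested in total RNA only, with -1.20 in bortezomib (adjusted p = 0.000237).

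The other genes of these pathways, apart from the 10, were counted for S51 against S51A in bortezomib, where 14.9% of all tested genes passed as higher in S51 cells in RPF and 16.6% as lower. Of 17 other genes of serine and one-carbon metabolism, 12 were tested in RPF, of which 5 passed as higher in S51 cells and 1 as lower, with a median log2 fold change of 0.25. Aldh1l2, the mitochondrial enzyme that oxidises formyl-folate, was the highest at 1.52 (adjusted p = 1.37e-05). Of 10 tested genes of proline and glutamate metabolism, 4 passed as higher, with a median of 0.18, Prodh being the highest at 1.25. Of 7 tested genes of asparagine, aspartate and alanine metabolism, 2 passed as higher and 2 as lower, from -0.82 for Asl to 1.30 for Gpt2. Of 10 tested genes of transsulfuration and glutathione, 1 passed as higher and 3 as lower, with a median of 0.14.

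Gclm and Gclc, the subunits of the enzyme that starts glutathione synthesis, rose upon bortezomib in both lines. The RPF log2 fold changes of Gclm were 2.04 in S51 cells (adjusted p = 6.5e-11) and 1.91 in S51A cells (adjusted p = 4.58e-11), and those of Gclc 1.07 (adjusted p = 7.34e-07) and 1.29 (adjusted p = 2.24e-08). For neither did the difference between the RPF responses pass (adjusted p = 0.74 and 0.551), and the total RNA responses of Gclc differed by -0.31 (adjusted p = 0.00312).

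Upon bortezomib in S51 cells, the extremes of each list in RPF were as follows. Among serine and one-carbon genes Sfxn1, a mitochondrial serine carrier, fell by 0.86 on the log2 scale (adjusted p = 0.000568) and Mthfd2l by 0.80 (adjusted p = 0.0395), and among proline and glutamate genes Oat, the ornithine aminotransferase, rose by 0.62 (adjusted p = 3.1e-05). Among transsulfuration and glutathione genes Mpst fell by 0.80 (adjusted p = 0.00326) and Ahcy by 0.34 (adjusted p = 0.0254). Among ATF4-linked transporters Slc7a11, the cystine carrier, rose by 0.80 (adjusted p = 0.000131) and Slc1a4, a carrier of serine and alanine, by 0.62 (adjusted p = 0.00237). Of the 8 tested, 5 passed as higher, against 14.8% of all genes. Among synthetases Lars rose by 0.71 (adjusted p = 5.62e-05) and Nars, which charges asparagine, by 0.46 (adjusted p = 7.73e-05), whereas Qars fell by 0.46 (adjusted p = 0.000248). Among ISR factors Ddit3 rose most, as given above, followed by Ppp1r15a, whose product directs the phosphatase of eIF2α, at 2.77 (adjusted p = 6.96e-07). Dld, Aldh1l2, Gls2, Prodh, Pycrl, Got2, Gpt, Gpt2, Ass1, Slc7a5, Slc1a5, Vars, Cebpb and Cebpg did not pass, with values from -0.49 for Gls2 to 0.50 for Aldh1l2.

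ATF4-linked amino acid transporters and cytosolic aminoacyl-tRNA synthetases had medians on the same side as the 10. These lists share no gene with the 10, and the transporters were chosen as linked to ATF4. Of 8 transporters tested in RPF, 7 passed as higher in S51 bortezomib than in S51A bortezomib, with a median of 1.12 and with Slc1a4 highest at 1.86 (adjusted p = 5.87e-09). Slc7a11 was at 1.15 (adjusted p = 5.93e-07). Of 20 synthetases, 16 passed as higher and 1 as lower, with a median of 0.60, from -0.47 for Qars to 1.10 for Yars. Of all tested genes, 14.9% passed as higher in that comparison and 16.6% as lower. In vehicle, 6 of the 8 transporters and 13 of the 20 synthetases passed as lower in S51A cells, against 13.8% of all genes. Slc7a1, a carrier of basic amino acids, passed as higher in S51A vehicle at 0.30 (adjusted p = 0.00565), as 14.8% of all genes did, and was the transporter that did not pass in bortezomib, at 0.06 (adjusted p = 0.568). Of 9 tested ISR factors, 8 passed as higher in S51 bortezomib, with a median of 1.98 in RPF and Atf5 highest at 3.18.

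**Figure D5:**
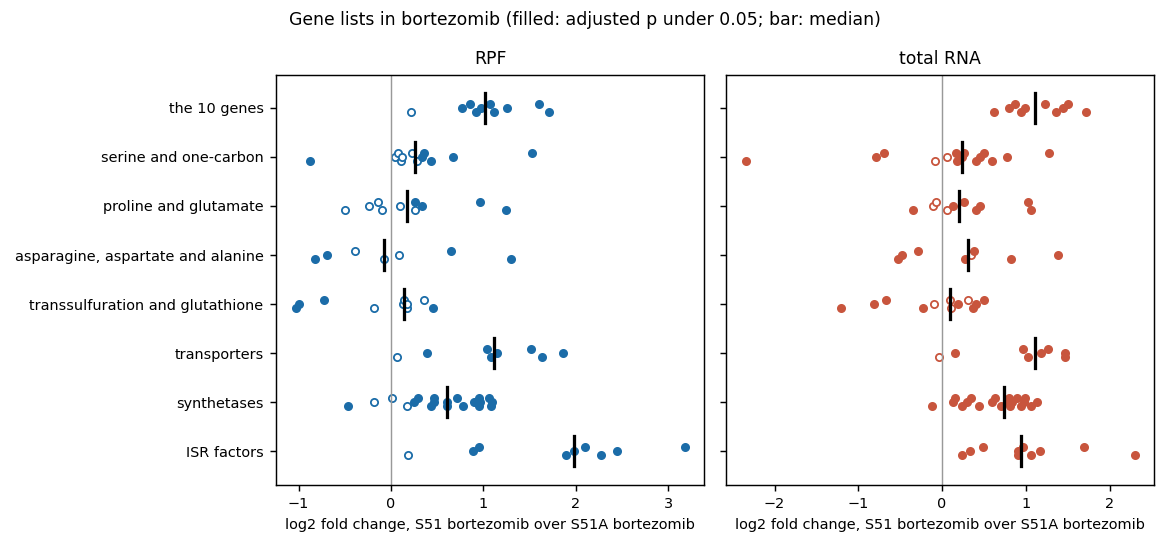
Log2 fold change in bortezomib, S51 over S51A, for every tested gene of each list, in RPF and in total RNA, with filled points at an adjusted p under 0.05 and a bar at each list's median. The 10 genes are left out of the other lists. Medians of the 10 genes and of the transporters lie above 1 in both panels, and those of the other pathway lists, synthetases and ISR factors aside, lie between -0.08 and 0.31.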

How the data were processed

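Ribosome-protected fragments (15 libraries) and total RNA (16 libraries) were sequenced from S51 and S51A SCC cells. The authors deposited raw read counts per gene. According to their methods and column names, reads were trimmed, aligned to mm10 with bowtie2 and counted over coding sequence with plastid, keeping uniquely mapped reads outside rRNA and repeats. The submitters' processing notes also name featureCounts, without its role. Tool versions and the region counted for total RNA are not given in the sources used here. Sample titles had been exchanged after deposit, and count columns were assigned by the series' own note on that exchange and by the study's count table, whose columns named by condition equal the deposited ones times a constant. The members and gene lists were chosen with earlier results of these data known.

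From the counts, edgeR 4.0.16 (R 4.3.3, limma 3.58.1) was run with TMM scaling, its default filter (minimum count 10, minimum total 15) and the quasi-likelihood test, with 1 coefficient per group over all 4 groups, separately for RPF and total RNA. TE was the interaction of library kind and group over all 31 libraries. P-values were adjusted by Benjamini-Hochberg over all tested genes. A gene passed at an adjusted p under 0.05 and was called when its fold change also exceeded 1.5 (RPF, TE) or 2 (total RNA). Intervals of 95% are the fold change with a normal quantile times its SE. Levels per kilobase used the longest RefSeq coding length less 60 bases. Scripts were tested on simulated data.

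Besides the 10 genes, the text names Eif2s1, Atf4, Atf5, Ddit3 and Hspa1b, direct paralogs, and Cbs as a pathway neighbour of Cth. It also names the 2 highest and 2 lowest other genes of each pathway list by RPF change upon bortezomib in S51 cells. Asl, Yars and Slc7a1 fall outside that rule and were named after their values were seen. Not every gene that the rule names is reported here. The lists were serine and one-carbon, proline and glutamate, asparagine with aspartate and alanine, and transsulfuration and glutathione. The others were ATF4-linked amino acid transporters, cytosolic synthetases, ISR factors and cell type markers. Alternatives were DESeq2 1.42.0, other scalings, filters and thresholds, replicate blocks, fits on the compared groups alone, and leaving out each library.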

Additional observations from a re-analysis of the deposited data

Results flagged for a closer look

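In 6 of the 70 groups of 4 libraries, a library lay far from the other 3 (Dixon's test at 95%), where chance gives about 1 in 20 groups. These were Shmt2 RPF at 807.2 CPM in S51 bortezomib replicate 1 and Shmt2 total RNA at 176.7 CPM in S51A bortezomib replicate 3. Aldh18a1 total RNA stood apart at 142.1 CPM in S51 vehicle replicate 3 and at 196.1 CPM in S51 bortezomib replicate 4. Asns total RNA stood apart at 720.4 CPM in S51 bortezomib replicate 1 and at 322.8 CPM in S51A vehicle replicate 4.

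The response to bortezomib differed between the lines, by the interaction test of edgeR, in total RNA for 9 of the 10 genes. The log2 differences, S51 minus S51A, were 0.2531 for Phgdh, 0.1945 for Psat1, 0.2342 for Psph, 0.2071 for Shmt2, 0.2797 for Mthfd2, 0.4994 for Aldh18a1, 0.2868 for Asns, 0.409 for Cth and 1.765 for Chac1. In RPF the difference was 1.592 for Chac1, and in TE it was -0.5717 for Phgdh.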

How the results depend on the processing

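Of the 15 RPF and 16 total RNA libraries, the RPF libraries were the shallower, and Chac1 and Pycr1 rested on the fewest RPF counts. Under RLE factors all values of the 10 genes kept their direction and their side of the adjusted p threshold, while total RNA of Shmt2 in bortezomib crossed 2-fold, which gave 6 called, and TE of Phgdh crossed 1.5-fold for the difference of responses. As ratios of group means of CPM, which carry no test, none changed sign. The cause of the changes below was not tested, apart from the wider count that a dropped threshold gives by construction.

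With no fold change threshold, the members called were 4 in RPF upon bortezomib in S51 cells, and in total RNA 9 in S51 cells, 7 in S51A cells, 9 between the lines in vehicle, 10 in bortezomib and 9 for the difference of responses. In TE they were 1 in S51 cells, 1 in bortezomib and 1 for the difference of responses. The last was also 1 under RLE factors, with no filter beyond 1 count and with DESeq2. By library sizes alone, 0 were called in total RNA upon bortezomib in S51 cells. Leaving out 1 library gave 0 to 1 called in RPF and in total RNA in S51 cells, and 0 to 1 in TE in S51 cells and for the difference of responses. The counts ranged from 7 to 9 in RPF in vehicle and from 5 to 6 in total RNA in bortezomib.

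The values that changed sign had not passed before, nor did they under the alternative. By library sizes alone these were, in RPF in S51A cells, Asns -0.009426 and Psat1 -0.01043, in total RNA Pycr1 -0.01764 in S51 cells and Asns -0.05687, Mthfd2 -0.1157 and Pycr1 -0.094 in S51A cells, in TE Psat1 0.04564, Pycr1 0.03786 and Cth 0.06511 in S51 cells, Asns 0.04945 in S51A cells, and Shmt2 0.08059 and Cth 0.008046 in bortezomib. Where each RPF library had to hold 10 counts or more they were Pycr1 -0.0193 in S51 cells and Chac1 0.002948 in vehicle. On the compared groups alone they were RPF of Pycr1 -0.002953 in S51 cells and total RNA of Mthfd2 -1.796e-05 in S51A cells. With no filter beyond 1 count, the TE difference of responses of Psat1 was -0.003539.

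Leaving out 1 library also turned signs. In RPF upon bortezomib, S51 values ranged from -0.286 to 0.00836 (Phgdh), -0.0475 to 0.169 (Aldh18a1), -0.099 to 0.196 (Pycr1) and -0.00979 to 0.209 (Cth), S51A values from -0.00204 to 0.0329 (Asns), -0.0954 to 0.00503 (Aldh18a1) and -0.0347 to 0.126 (Pycr1), and differences of responses from -0.146 to 0.0952 (Shmt2), -0.0024 to 0.15 (Mthfd2) and -0.147 to 0.142 (Pycr1). RPF in vehicle ranged from -0.267 to 0.209 (Chac1). Total RNA in S51A cells ranged from -0.0585 to 0.0691 (Mthfd2) and -0.0247 to 0.0739 (Pycr1). TE ranged from -0.206 to 0.0688 (Pycr1) in S51 cells, from -0.0133 to 0.0868 (Psph), -0.0377 to 0.117 (Pycr1) and -0.331 to 0.0476 (Chac1) in S51A cells, from -0.0639 to 0.024 (Asns), -0.0164 to 0.174 (Psat1) and -0.157 to 0.124 (Pycr1) in vehicle, from -0.0238 to 0.0291 (Shmt2), -0.0112 to 0.053 (Aldh18a1) and -0.0735 to 0.304 (Chac1) in bortezomib, and from -0.108 to 0.0799 (Psat1), -0.00298 to 0.119 (Psph), -0.265 to 0.018 (Pycr1) and -0.393 to 0.0674 (Chac1) for the difference of responses.

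With the replicate number as a replicate block, the members called stayed at 1, 1, 8, 9 and 1 in RPF and at 1, 0, 3, 5 and 1 in total RNA, while RPF of Asns (0.19, edgeR adjusted p = 0.0562) and Psat1 (0.21, edgeR adjusted p = 0.0558) in S51 cells no longer passed and total RNA of Mthfd2 in S51A cells was -0.0009285. Deviations of same-numbered libraries correlated between -0.17 and 0.27 in RPF and between 0.02 and 0.32 in total RNA, and 11 of 15 RPF and 15 of 16 total RNA libraries were closest to their own number, a hint that numbers mark shared sets. The numbers were not taken to pair the samples, because not every correlation exceeded 0.1 and no label says what a number marks. With the lysate as a replicate block in TE, none was called, and 2 values of Mthfd2 passed, as given above. The stricter motif was found in 2 genes in place of 3.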
